A study of Homo sapiens with 2 samples.

Results

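The genes described here encode parts of the machine that starts anaphase: the anaphase-promoting complex, its activators CDC20 and FZR1, the separase inhibitor securin (PTTG1) and separase itself (ESPL1). They were 10 genes chosen by name (CDC20, FZR1, PTTG1, ESPL1, CDC16, CDC23, CDC27, ANAPC1, ANAPC5 and ANAPC10), and each was read through every probe set annotated to that gene and to no other. Of these, 9 genes had such probe sets, 25 in all, among 19775 genes with a probe set of their own on the array. ANAPC1 had none, because its probe sets were also annotated to pseudogenes. The data were 2 Affymetrix arrays of total RNA from DLD-1, a human colorectal carcinoma line with mutated p53 of its own, stably transfected with a tet-off construct for wild-type p53. The p53 on 9 h array came from cells kept for 9 h without tetracycline, and the p53 off array from the same line cultured with tetracycline. Both groups carried the transgene, so tetracycline withdrawal and the expression of p53 cannot be told apart, and each condition had 1 array. There were therefore no replicates, and no test, error or p-value between the conditions could be given.

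The anaphase-promoting complex is a large ubiquitin ligase that marks mitotic proteins for destruction by the proteasome. CDC20 brings substrates to it in mitosis, and FZR1, also called CDH1 but unrelated to E-cadherin, does so from late mitosis through G1. Its destruction of securin frees separase, which cuts the cohesin rings that hold sister chromatids together, and its destruction of cyclin B lets the cell leave mitosis. Transcripts of CDC20, securin and separase are known to be made mainly in G2 and mitosis, whereas most core subunits are present through the whole cell cycle. In these bulk samples, fewer cells in G2 or mitosis and less RNA per cell cannot be told apart.

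With p53 on, separase was the member that was lowest relative to p53 off, CDC27 was lower on all of its probe sets, CDC20 was lower by less than 2-fold, and securin was higher by less than 2-fold. The core subunit genes CDC16, CDC23 and ANAPC5 lay within 2-fold on their brightest probe sets. A value below is the deposited MAS5 signal, a linear brightness, and a log2 ratio sets the p53 on 9 h signal over the p53 off signal, so a negative one means lower with p53 on. Signals under a floor of 112.4, the median of all signals that were not controls, were set to the floor for the ratio, which is then a bound. Over all 25 probe sets, all of them measured, 7 (28%) were lower by 2-fold or more, 1 (4.0%) was higher by as much and 17 lay between, 2 of them bounds that may in fact be past 2-fold. Over the whole array, with 25962 measured probe sets, the shares were 13.0% lower and 14.0% higher. The median log2 ratio of the 25 was -0.54, beside -0.0097 over all measured probe sets, and 21 of the 25 were below 0, beside 50.4% of all. Probe sets of the same gene are repeat readings of it, and CDC27 and ESPL1 gave 3 and 2 of the 7 lower ones. The plot of signals by probe set shows both arrays for each one.

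**Figure D1:**
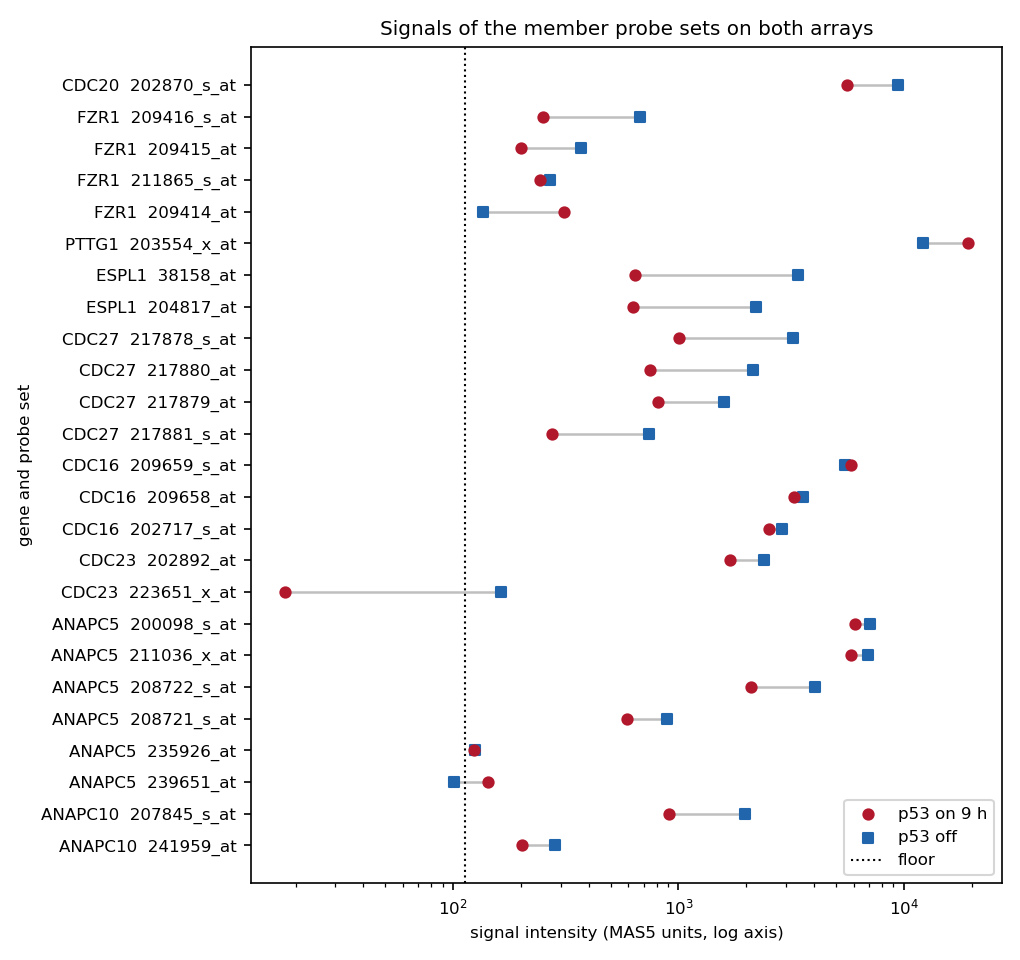
Signal intensity (MAS5 units, log axis) of the 25 member probe sets, 1 row each, on the p53 on 9 h array (circles) and the p53 off array (squares), with the floor of 112.4 as a dotted line. The p53 on signal lies left of the p53 off signal in 21 rows, farthest among probe sets above the floor on both arrays in those of ESPL1, and right of it in 4 rows, among them PTTG1.

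The promoters of 4 members are shown because these genes differ in direction: CDC20, ESPL1 and CDC27 were lower and PTTG1 was higher. Each is the 250 bases before the gene's start, 5′ to 3′ on the gene's strand, from RefSeq on GRCh38.p14. They lie at chr1:43358731-43358980 (plus strand) for CDC20, chr12:53268049-53268298 (plus strand) for ESPL1, chr5:160421605-160421854 (plus strand) for PTTG1 and chr17:47189296-47189545 (minus strand) for CDC27. Capitals mark matches, on either strand, to TTTGAA or TTCGAA (the cell cycle genes homology region found in many G2 and mitosis promoters), CCAAT (the NF-Y box) and TTCCCGC (an E2F-like motif). A match on the opposite strand appears here as its reverse complement, and neighbouring CCAAT matches on opposite strands can overlap.
CDC20: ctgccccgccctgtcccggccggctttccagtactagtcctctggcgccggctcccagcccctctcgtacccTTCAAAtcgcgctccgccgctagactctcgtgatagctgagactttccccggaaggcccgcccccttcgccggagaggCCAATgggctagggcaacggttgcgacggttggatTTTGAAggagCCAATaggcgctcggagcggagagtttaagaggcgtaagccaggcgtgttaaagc
ESPL1: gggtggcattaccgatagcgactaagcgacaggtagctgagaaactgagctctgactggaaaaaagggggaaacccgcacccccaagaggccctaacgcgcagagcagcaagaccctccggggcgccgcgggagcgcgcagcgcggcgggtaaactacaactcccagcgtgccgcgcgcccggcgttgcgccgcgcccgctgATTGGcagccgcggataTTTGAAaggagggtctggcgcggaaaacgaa
PTTG1: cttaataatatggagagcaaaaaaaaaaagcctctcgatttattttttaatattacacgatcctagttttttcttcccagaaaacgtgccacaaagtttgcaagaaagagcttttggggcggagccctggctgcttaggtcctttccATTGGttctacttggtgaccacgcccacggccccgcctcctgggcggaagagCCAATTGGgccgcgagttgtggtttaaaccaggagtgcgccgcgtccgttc
CDC27: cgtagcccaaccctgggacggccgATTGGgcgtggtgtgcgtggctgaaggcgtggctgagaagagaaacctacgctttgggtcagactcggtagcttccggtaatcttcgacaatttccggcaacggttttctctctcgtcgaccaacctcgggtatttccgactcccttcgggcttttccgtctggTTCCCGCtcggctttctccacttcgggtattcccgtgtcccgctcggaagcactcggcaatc
CDC20 held TTTGAA 60 to 65 bases before its start, with CCAAT on either side of it, and a second match 173 to 178 bases before. ESPL1 held TTTGAA 26 to 31 bases before its start and CCAAT, on the opposite strand, 44 to 48 bases before. The PTTG1 window held 3 CCAAT matches, of which one pair overlaps, and neither TTTGAA nor TTCGAA. CDC27 held TTCCCGC 56 to 62 bases before its start and 1 CCAAT match on the opposite strand. Among all 35116 windows of the same 250 bases in the table, 13.3% held TTTGAA, 1.19% TTCGAA, 32.0% CCAAT and 5.52% TTCCCGC. All 10 members had at least 1 such window, 15 in all, and TTTGAA was found for 4 genes, the other two being FZR1 and 1 of 4 windows of ANAPC10. CCAAT was found for 7 genes, TTCCCGC for 4 and TTCGAA for 0. A gene was counted for a match in any of its windows, so these counts are not like for like with the shares per window. TTCCCGC in FZR1, TTTGAA in ANAPC10 and CCAAT in ANAPC5 were found only in windows not placed at the gene's start. A match is a run of letters in this window and says nothing of a factor bound there.

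The activators were read first. CDC20 was represented by a single probe set, 202870_s_at, with a signal of 5603 on the p53 on 9 h array, against 9425 on the p53 off array. It was 1.68-fold lower with p53 on, a log2 ratio of -0.75, and 20.1% of all 13915 measured genes had a smaller ratio. Both signals were far above the floor, but with 1 probe set there was no second reading of the gene. By its name this probe set is marked for shared sequence, and the RefSeq table lists 1 pseudogene named for CDC20. Any share of the signal that comes from it was not tested.

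FZR1 had 4 probe sets, which disagreed in direction. The brightest, 209416_s_at, read 250.7 with p53 on, against 676.0 with p53 off, a log2 ratio of -1.43. The probe set 209415_at was lower by less than 2-fold, at 199.5 with p53 on, against 371.2 with p53 off. The probe set 211865_s_at read 243.8 with p53 on, against 269.7 with p53 off, a log2 ratio of -0.15. The fourth, 209414_at, went the other way and was 2.28-fold higher, at 311.2 with p53 on, against 136.3 with p53 off. All 8 FZR1 signals were above the floor, and 3 of the 4 probe sets were lower with p53 on. The p53 off signal of 209414_at was near the floor of 112.4, and with the floor at the 60th percentile or after loess it was not 2-fold higher. The log2 ratios of FZR1 spanned 2.62, more than in 96.9% of the 778 genes that had 4 measured probe sets, whose median span was 1.18. Mixed signs as such were common, in 57.8% of those genes. Taken over all 4 probe sets, the median log2 ratio of FZR1 was -0.52 and the mean -0.32, neither of which reached 2-fold.

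Securin and separase, an inhibitor and the protease it holds in check, went in opposite directions. PTTG1, the securin gene, was the only member whose brightest reading was higher by more than 1.5-fold: its single probe set 203554_x_at read 19251 with p53 on, against 12195 with p53 off. This was 1.58-fold higher, a log2 ratio of 0.66, with 76.5% of measured genes at a smaller ratio, but it was -0.26 when the arrays were scaled to the spike-in controls described below, which moved the median of all genes to -0.78. The name of this probe set marks it as one that may cross-hybridize, and PTTG1 has near-identical copies, so its signal may include theirs. The probe set of the copy PTTG3P read 871.6 with p53 on, against 713.8 with p53 off, and that of PTTG2 was under the floor on both arrays, at 63.4 with p53 on, against 36.6 with p53 off.

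ESPL1, the separase gene, was lower on both of its probe sets. The probe set 38158_at read 642.2 with p53 on, against 3409 with p53 off, and was 5.31-fold lower. The probe set 204817_at read 631.5 with p53 on, against 2206 with p53 off, and was 3.49-fold lower. The p53 on signals were close to each other, and both lay far under the p53 off signals and well above the floor. The brightest reading, a log2 ratio of -2.41, had 0.654% of measured genes below it, and ESPL1 was at least 2-fold lower under every one of the 10 other ways of processing that were tried. Both other floors, the pseudocount, median centring and leaving out probe sets marked for shared sequence left its log2 ratio at -2.41. They were hardly a check of it. Scaling to the spike-ins lowered genes in general. Quantile normalization gave -2.36, loess -2.16 and the mean or the median of its probe sets -2.11.

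**Figure D2:**
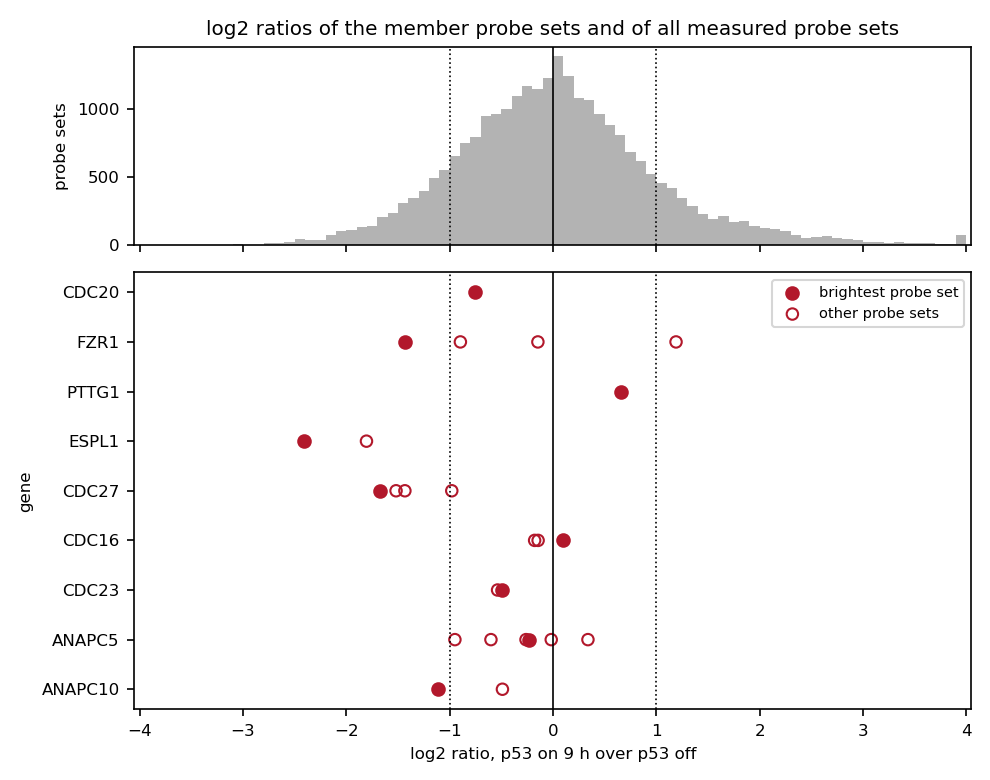
Upper panel, number of probe sets by log2 ratio (p53 on 9 h over p53 off) for all 25962 measured probe sets, with values past 4 in either direction placed at the edge. Lower panel, log2 ratio of each member probe set by gene (filled, brightest of the gene; open, the others), with dotted lines at 2-fold. Both ESPL1 readings lie left of -1.80, the 4 of CDC27 lie between -1.68 and -0.98, those of CDC16 lie near 0, and the 4 of FZR1 stretch from -1.43 to 1.19.

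The core subunits split into those that were lower and those near 0. Together the 5 subunit genes had 17 probe sets, of which 4 were lower by 2-fold or more, 0 were higher by as much and 13 lay between, both bounds among them. Over all measured probe sets the shares were 13.0% lower and 14.0% higher. The subunits' log2 ratios ran from -1.68 to 0.34, and 15 of the 17 were below 0. Of the 4 lower probe sets, 3 were of CDC27 and 1 of ANAPC10, and probe sets of the same gene are repeat readings of it.

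CDC27, one of the tetratricopeptide-repeat scaffold subunits to which the activators bind, was lower on all 4 probe sets. The brightest, 217878_s_at, read 1003 with p53 on, against 3209 with p53 off, and was 3.20-fold lower. The probe set 217880_at read 745.2 with p53 on, against 2135 with p53 off, and was 2.86-fold lower. The probe set 217881_s_at read 274.0 with p53 on, against 739.6 with p53 off. The fourth, 217879_at, was just short of 2-fold, at 809.4 with p53 on, against 1596 with p53 off. These 4 log2 ratios spanned 0.70, less than in most genes with 4 measured probe sets (17.0% of them spanned less), and 20.6% of such genes had all 4 below 0. The RefSeq table lists 11 pseudogenes named for CDC27, and any share of the signal that comes from them was not tested. CDC27 was at least 2-fold lower under each of the 10 other ways of processing, but both other floors left its log2 ratio at -1.68 and were no check of it.

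CDC16 and CDC23 are further repeat-containing scaffold subunits. The 3 probe sets of CDC16 had log2 ratios of 0.093, -0.14 and -0.18, with signals of 5846, 3245 and 2535 on the p53 on 9 h array, against 5480, 3584 and 2867 on the p53 off array. CDC23 read 1701 with p53 on, against 2399 with p53 off, on 202892_at, a log2 ratio of -0.50. Its other probe set, 223651_x_at, was dim, at 18.0 with p53 on, against 162.9 with p53 off, and was at least 1.45-fold lower. So CDC16 differed by at most 1.13-fold on any reading, and CDC23 was 1.41-fold lower on its bright probe set, while the other gives only a bound, so that its difference may be past 2-fold.

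ANAPC5, a platform subunit, had 6 probe sets, none of which was counted as past 2-fold. The brightest pair, 200098_s_at and 211036_x_at, had log2 ratios of -0.23 and -0.26, and the first read 6055 with p53 on, against 7102 with p53 off. The probe set 208722_s_at was close to 2-fold lower, at 2094 with p53 on, against 4042 with p53 off, and 208721_s_at was 1.52-fold lower, at 588.1 with p53 on, against 891.4 with p53 off. The remaining pair lay near the floor, at 124.1 with p53 on, against 125.5 with p53 off, on 235926_at and at 142.1 with p53 on, against 100.8 with p53 off, on 239651_at, where the p53 off signal was under the floor and the ratio is a bound. Of the 6 log2 ratios 5 were below 0.

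ANAPC10, which helps the activators to recognize the destruction motif of substrates, was lower on both probe sets. The brighter, 207845_s_at, read 912.5 with p53 on, against 1968 with p53 off, and was 2.16-fold lower. The dimmer, 241959_at, read 201.3 with p53 on, against 282.5 with p53 off, a log2 ratio of -0.49. The 2-fold difference of ANAPC10 was met under 6 of 10 other ways of processing. Of those 6, both other floors, the pseudocount and median centring left its log2 ratio at -1.11, so they were hardly a check. Scaling to the spike-ins lowered genes in general, and quantile normalization gave -1.03. The 2-fold difference was missed after loess and by the mean or median of its probe sets. It was also missed without probe sets marked for shared sequence, which left 241959_at.

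ANAPC1, the largest scaffold subunit, was not counted, since its 3 probe sets were annotated to pseudogenes as well. They read 1146, 763.8 and 586.1 on the p53 on 9 h array, against 1843, 861.2 and 1138 on the p53 off array, with log2 ratios of -0.69, -0.17 and -0.96.

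With 1 value per gene, its brightest probe set, 4 of the 9 members (FZR1, ESPL1, CDC27 and ANAPC10) were lower by 2-fold or more, 0 were higher by as much and 5 lay between. Over the whole array, with 13915 measured genes, the shares were 13.5% lower and 15.3% higher. The median log2 ratio over the 9 genes was -0.75, the value of CDC20, beside 0.0035 over all measured genes. By the mean or the median of a gene's probe sets, FZR1 and ANAPC10 did not reach 2-fold, and the median over the members was -0.52. Without probe sets marked for shared sequence, the median over the members left was -0.50. Genes with a ratio like that of CDC20 were numerous. Over the 2 arrays, the 5 genes with at least 2 measured probe sets whose median log2 ratio was nearest to that of CDC20 were CCDC174, TRIM58, TMED8, FXYD5 and ZBTB14, and 469 of 6680 such genes lay within 0.1 of it.

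The 8 subunit genes outside the chosen members showed no 2-fold difference in either direction on their brightest probe set, and their median log2 ratio was -0.040. Over all measured genes, 13.5% were lower and 15.3% higher by as much, so among 8 genes a count of 0 is not far from those shares. ANAPC2, the cullin-like subunit, and ANAPC11, the RING subunit that together with it forms the catalytic core, had log2 ratios of 0.26 and 0.15. ANAPC13, ANAPC7 and CDC26 were the lowest, at -0.94, -0.91 and -0.83. ANAPC4 and ANAPC15 were at -0.12 and 0.040. ANAPC16 was at 0.37 on its brightest probe set, with 1 of its 4 probe sets at least 2-fold higher.

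The ubiquitin-conjugating enzymes of the complex differed far more than its subunits. UBE2C, which starts the ubiquitin chain, read 587.7 with p53 on, against 5983 with p53 off, and UBE2S, which extends it, read 1149 with p53 on, against 11692 with p53 off. Both were 10.2-fold lower, on 1 probe set each. In the list of these enzymes, inhibitors and spindle checkpoint genes, 14 of 15 had a probe set of their own (UBE2D1 did not), of which 7 (50%) were lower by 2-fold or more and 1 (7.14%) was higher by as much. Over all measured genes the shares were 13.5% lower and 15.3% higher. The median log2 ratio of the list was -0.92. FBXO5, the interphase inhibitor known as EMI1, was 4.60-fold lower, at 286.5 with p53 on, against 1317 with p53 off. BUB1B, a checkpoint protein that holds CDC20 inactive, was 5.08-fold lower, at 1063 with p53 on, against 5398 with p53 off. TTK, the kinase at the head of the checkpoint, had a log2 ratio of -1.95, TRIP13, an ATPase that disassembles the inhibitory complex, of -1.19, and its partner gene MAD2L1BP of -1.01. MAD2L1, the partner of CDC20 in that complex, was at -0.35 on its brightest probe set and at -1.80 on its lowest. BUB3, another part of the same complex, was the higher one: it read 31374 with p53 on, against 10713 with p53 off, and all 6 of its probe sets were above 0. The rest lay within 2-fold, at -0.84 for BUB1, -0.65 for MAD2L2 and 0.63 for MAD1L1. FBXO43 and CDC20B, which are best known from germ cells and ciliated cells, lay near or under the floor on both arrays.

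Transcripts of known substrates of the complex were mostly lower. Of 31 listed substrates, 21 (67.7%) were lower by 2-fold or more, 3 (9.68%) were higher by as much and 7 lay between. Over all measured genes the shares were 13.5% lower and 15.3% higher. The median log2 ratio of the substrates was -1.70. The 4 farthest from 0 were the mitotic kinases PLK1 and AURKA, at -4.15 and -3.18, the spindle factor TPX2 at -2.76, and ANLN, a cytokinesis scaffold, at -2.66. The probe sets of AURKA were uneven, with 2 of 3 at least 2-fold lower and the third at -0.33. The 2 nearest to 0 were DBF4, which activates the replication kinase CDC7, at -0.096, and SKP2, itself a ubiquitin ligase subunit, at -0.32, although another SKP2 probe set was at -1.27. The 3 higher genes, named after their values were seen, were E2F3 at 1.75, SKIL at 1.10 and GMNN at 1.09.

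Cohesin, which separase cuts, and its regulators formed the last list. Of its 16 genes, 8 (50%) were lower by 2-fold or more, 0 were higher by as much and 8 lay between. Over all measured genes the shares were 13.5% lower and 15.3% higher. The median log2 ratio of this list was -1.0. RAD21, the cohesin subunit that separase cleaves, read 4158 with p53 on, against 8027 with p53 off, a log2 ratio of -0.95. It is named here for that role, after its value was seen. SMC3, a ring subunit, read 582.5 with p53 on, against 3836 with p53 off, and was 6.58-fold lower there, but another of its probe sets had a log2 ratio of -0.14. SGO1, which protects centromeric cohesin, was 3.64-fold lower, at 112.5 with p53 on, against 408.9 with p53 off. That p53 on signal was only just above the floor of 112.4, so the fold is close to a bound. PDS5B, a cohesin-bound regulator, was at -1.86 on its brightest probe set, the only one of its 3 that reached 2-fold, and at -0.31 on its highest. ESCO2, the S phase acetyltransferase of SMC3, had a p53 on signal of 109.0, under the floor, against 407.1 with p53 off, and was at least 3.62-fold lower. STAG1 and SGO2 were the nearest to 0, at 0.084 and 0.0031. The lists overlap, since BUB1, SGO1 and CDCA5 each stand in a pair of them.

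**Figure D3:**
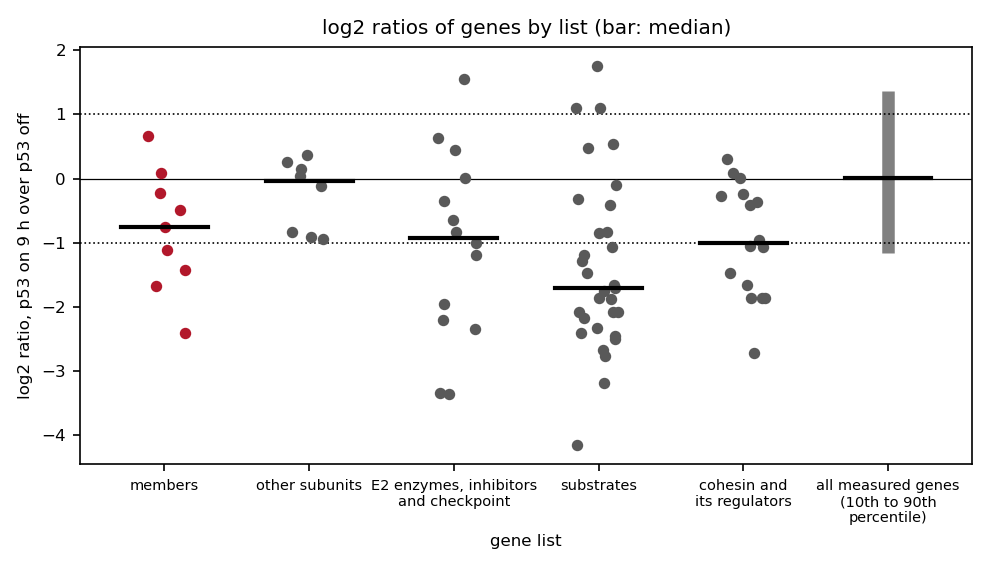
log2 ratio (p53 on 9 h over p53 off) of the brightest probe set of each gene, for the 9 members and 4 related gene lists, with a bar at each list's median; the last column gives the median and the 10th to 90th percentile of all 13915 measured genes, -1.16 to 1.36. The other subunits lie around a median of -0.040 and the substrates around -1.70, with the members between them at -0.75.

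The arrays differed in ways that touch all of these ratios. The beta-actin control read 7.29 times brighter at its 3′ end than at its 5′ end on the p53 on 9 h array, against 1.37 times on the p53 off array, and GAPDH 1.77 times, against 0.974 times. The 18 spike-in probe sets had a median signal ratio of 1.89, p53 on 9 h over p53 off. Scaled to them, the median gene had a log2 ratio of -0.78, so directions here are relative to the median gene. On that scale CDC20 was at -1.67, CDC23 at -1.42 and ANAPC5 at -1.15, past 2-fold, and CDC16 at -0.83. The part of the 3′ to 5′ difference in any member's ratio was not tested. Among 10 markers of colon epithelium, 7 were above the floor on both arrays, and KRT20, CDX1 and GPA33 were under it on both. Their summed signal was 172384 with p53 on, against 107129 with p53 off. Of the markers of other cell types, 5 of 7 for leukocytes, 6 of 6 for fibroblasts and 5 of 5 for endothelium had a probe set of their own. Their summed signals were 665.6, 820.6 and 611.4 with p53 on, against 334.3, 375.9 and 233.2 with p53 off, and PTPRC, CD3E, CD14, COL1A1, COL3A1, KDR and TEK were under the floor on both arrays. Above the floor were 2 leukocyte, 3 fibroblast and 3 endothelial markers with p53 on, against 0, 1 and 1 with p53 off, and 1 leukocyte and 1 fibroblast marker were at least 2-fold higher. The part of these differences in the members' ratios was not tested.

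**Figure D4:**
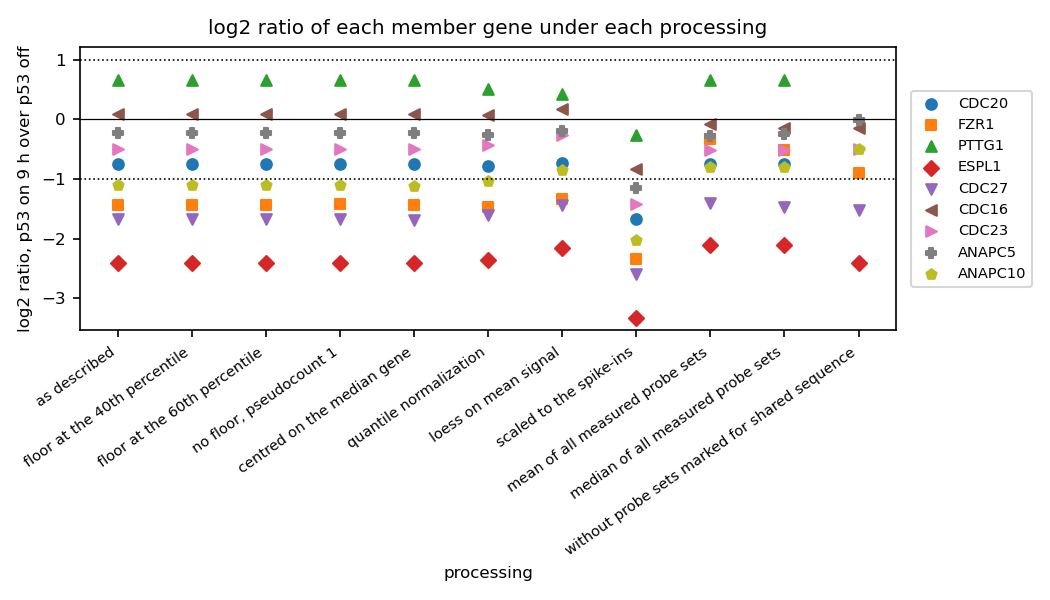
log2 ratio (p53 on 9 h over p53 off) of each of the 9 member genes as described and under 10 other ways of processing, with dotted lines at 2-fold. ESPL1 lies between -2.41 and -2.11 except at -3.33 when scaled to the spike-ins. PTTG1 lies between 0.44 and 0.66 except at -0.26 there. CDC20 and PTTG1 have no value without probe sets marked for shared sequence.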

How the data were processed

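Trizol-extracted total RNA was labelled with Affymetrix's standard procedure, per the labels' protocols. The authors deposited 1 signal intensity per probe set on a linear scale, computed by MAS5 according to the submitters' processing notes. For MAS5, the version and background settings were not given in the sources used here. Between the arrays no scaling was added, because the mean without the lowest and highest 2% of signals was 500.07 on both. An array has no read depth, and its precision is limited by 1 array per condition.

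Of 54675 probe sets, 62 were controls, 41091 had 1 gene symbol, 1801 several and 11721 were unnamed here. Names came from GEO's platform annotation and were updated by Entrez identifier through RefSeq (GRCh38.p14), which matched 41037. The floor was the 50th percentile of signals that were not controls. A probe set under it on both arrays was not measured. Each gene was read through its brightest probe set by mean signal, and 13915 genes were measured. Differences were counted at 2-fold.

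The members, the lists and the ways of processing were chosen with earlier results of these data known, so no list is independent support for its direction. All members were named, all of the first pair of related lists, and of the other two the 4 genes farthest from 0 and the 2 nearest. The 5 genes most like CDC20 followed a set rule. The ratio step was run on simulated data, with large changes set into genes far above the floor and almost no noise. That run could not show how the floor treats dim genes that differ. Other ways of processing were a floor at the 40th or the 60th percentile, a pseudocount of 1 without floor, median centring, quantile normalization, loess (span 0.3), scaling to the spike-ins, the mean or the median of a gene's probe sets, and leaving out probe sets named _x_at, _s_at or _a_at. The median over probe sets and the alternatives for the related lists were chosen after seeing the data. The software was Python 3.11.15, pandas 2.3.3, numpy 2.4.6, statsmodels 0.14.6 and matplotlib 3.10.9.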

Additional observations from a re-analysis of the deposited data

Results flagged for a closer look

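Control probe sets, which are in none of the counts of genes or probe sets above, read differently on the p53 on 9 h array than on the p53 off array. The ratio of 3′ to 5′ signal was 7.29 with p53 on, against 1.37 with p53 off, for beta-actin, and 1.77, against 0.974, for GAPDH. The ratio of spike-in signal, p53 on 9 h over p53 off, had a median of 1.89 over 18 probe sets and ran from 1.47 to 2.59. Ratios of member genes scaled to the spike-ins are given above. The part of these control differences in the ratios of the member genes was otherwise not tested.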

How the results depend on the processing

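No paired analysis was possible because each condition had 1 array. Scaling to the spike-ins gave 20 member probe sets lower by 2-fold or more and 0 higher by as much, and a median of -1.67 over the member genes. The median of all genes was then -0.78, with 41.1% of genes lower by 2-fold or more and 5.94% higher by as much. These shares and those below are over genes, so they are not like for like with counts of member probe sets. Under scaling to the spike-ins, 4 of the other subunits and 13 cohesin genes were at least 2-fold lower. Then 0 genes were at least 2-fold higher among the enzymes, inhibitors and checkpoint genes or among the substrates. Without probe sets marked for shared sequence, 11 member probe sets were left and 3 were at least 2-fold lower, where 12.4% of all measured genes were lower and 15.4% higher by as much. CDC20 and PTTG1 then had no value, 5 of the 15 cohesin genes left were at least 2-fold lower, and 0 of 11 enzyme and checkpoint genes and 1 of 20 substrates were at least 2-fold higher. With the floor at the 60th percentile or after loess, the count of member probe sets at least 2-fold higher was 0. The shares of all measured genes were 14.5% lower and 15.0% higher at the 60th percentile, and 11.4% and 15.2% after loess. With the floor at the 40th percentile or with none, 8 member probe sets were at least 2-fold lower. In both settings 2 genes of the enzyme and checkpoint list were at least 2-fold higher. Of all measured genes, 13.5% were lower and 17.0% higher by as much at the 40th percentile. Without a floor the shares of genes were 17.6% and 22.7%. FZR1 was at -0.32 and -0.52 by the mean and the median of its probe sets.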
